A study of Mus musculus with 2 samples.

Results

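Long intergenic noncoding RNAs (lincRNAs) are transcripts made between protein-coding genes that carry no long open reading frame. Most are capped and spliced by the same machinery as mRNAs, and several act in the nucleus, on chromatin or by the act of their own transcription, whereas a smaller number work in the cytoplasm. In embryonic stem cells some lincRNAs help to hold the pluripotent state, and others serve as precursors of microRNAs or take part in the choice of the X chromosome to be silenced. The lincRNA transcripts described here are the rows of the deposited table whose transcript type in GENCODE M21 is lincRNA, with the widely studied nuclear, imprinted and snoRNA host genes (Malat1, Neat1, Meg3, Rian, Mirg, Kcnq1ot1, H19, Pvt1, Gas5, Zfas1 and the Snhg genes) left out. They number 4898 of 121429 transcripts and belong to 3407 genes, and 4571 of them also have an intron value.

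The cells were wild-type mouse embryonic stem cells of the feeder-depleted XY line DTCM23/49, grown on gelatin with serum and leukemia inhibitory factor. They received 200 µM of 4-thiouridine (4sU), a uridine analog that growing RNA chains take up, for 10 min. RNA that had taken up 4sU was biotinylated and pulled down, which gave the labeled (newly transcribed) library, and the RNA that stayed behind gave the unlabeled (preexisting) library. The labels conflict on the latter: its title and RNA type say total, while its description and the extraction protocol say preexisting. It is taken as preexisting here, and ratios and half-lives would mean something else if it were total RNA. There is 1 library of each, both from biological replicate 1, so no difference below has a replicate check and none was tested.

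Each transcript has an exon value and, if it is spliced, an intron value in each library. The values are called TPM, but each column adds up to 10 times the sum that TPM gives, and they are used here as deposited. The depth of the libraries was read from the low values of genes with a single transcript. These fall on steps of about 0.36 per kilobase of usable length in the labeled library and 0.28 in the unlabeled library, taken as about 1 read of 100 bases, although just 55.8% of 1945 labeled and 47.2% of 1336 unlabeled values lie within 0.1 of a whole step, where an even spread would give 20%. Read numbers below are therefore approximate.

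Genes that define embryonic stem cells were high in both libraries. Summed over its transcripts, Pou5f1 had exon values of 782.9 in the labeled and 1198 in the unlabeled library, and Nanog had 1099 and 2416. Together the 9 stem cell markers examined summed to 13190 and 18920, the most abundant being Tdgf1. The 5 fibroblast markers summed to 7.49 and 16.2, most of it Thy1, with Col3a1 and Lum listed at 0. The 5 endoderm markers summed to 4.87 and 5.88, all from Gata4, with Sox17, Gata6, Foxa2 and Afp listed at 0, and the 4 mesoderm markers summed to 1.62 and 10.2, Mixl1 being the highest in the labeled (0.80) and Hand1 in the unlabeled library (6.48), with Kdr listed at 0. Of 4 neural markers Pax6 (137.8 and 151.4), Tubb3 (132.7 and 156.9) and Map2 (39.0 and 169) were present, while Sox1 was near 0 (0.76 and 1.56). Whether these neural transcripts bear on any lincRNA value was not tested. In RNA from bulk cells, fewer cells with a transcript and less of it per cell cannot be told apart.

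Most lincRNA transcripts were at or near 0. The exon value was listed at 0 in both libraries for 2624 of the 4898 transcripts, was above 0 in the labeled library alone for 840 and in the unlabeled library alone for 204, and was above 0 in both for 1230. Of these 2624 transcripts without exon signal, 540 had a mean intron value above 1. Counts of zeros in this and the next paragraph have no share over all transcripts beside them. They also depend on the depth of each library, so they are not read as a trait of lincRNAs. The mean exon value of the libraries exceeded 1 for 1265 transcripts of 938 genes, 10 for 487 and 100 for 84. All lincRNA transcripts together made up 0.826% of the summed exon values in the labeled library and 0.604% in the unlabeled library, and 4 transcripts, those of Gm26825, Gm26917, Gm26623 and Gm10076, held 29.7% and 33.7% of the lincRNA sums.

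LincRNA exons were, as a group, richer in the labeled than in the unlabeled library. Among the 1265 transcripts with a mean exon value above 1, 1050 had a value above 0 in both libraries, 199 were listed at 0 in the unlabeled and 16 in the labeled library. For the 1050 the median log2 ratio of labeled over unlabeled exon value was 1.33 (95% order-statistic interval 1.21 to 1.42, which covers the number of transcripts only), with quartiles of 0.10 and 2.21. The libraries have no common scale, so the ratio is read beside other transcripts. For 33401 coding transcripts the median was -0.38, for 74834 transcripts of every type it was 0.00, and for 1294 antisense transcripts it was 1.26. The lincRNA median thus lay 1.71 above that of coding transcripts and close to that of antisense transcripts. It was at least 2-fold above the median of all transcripts for 616 of the 1050 lincRNAs (58.7%, Wilson 95% interval 55.7 to 61.6), against 27.6% of all transcripts and 14.9% of coding transcripts. It was at least 2-fold below that median for 101 (9.62%), against 21.2% of all transcripts and 26.6% of coding transcripts. A transcript seen in 1 library can pass the filter on the mean through that library, and with an exon value above 1 asked of each library the distance from coding transcripts was 1.50.

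The lincRNA median lay above the coding median at each level of abundance. LincRNA transcripts with a mean exon value between 10 and 30 had a median log2 ratio of 1.50 (n = 249), where coding transcripts of that level had -0.28. Between 30 and 100 the medians were 1.01 (n = 149) and -0.57. Above 100 the lincRNA median was 0.28 (n = 84) and the coding median was -0.80. When all transcripts were divided into 10 classes of equal size by mean exon value, the lincRNA median exceeded the coding median by 0.99 in the lowest class, 2.05 in the sixth, 1.35 in the seventh, 1.86 in the ninth and 0.65 in the highest, where 49 lincRNA transcripts had a median of -0.13. Sequence shared with other genes, described further on, was also most frequent at the top, and its part in the smaller gap was not tested.

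Introns were also abundant relative to exons. All 4 values were above 0 for 798 lincRNA transcripts of 566 genes. Their median labeled intron to exon ratio was 0.985 (interval 0.891 to 1.07), against 0.570 in 31386 coding transcripts and 1.16 in 1034 antisense transcripts. The median unlabeled ratio was 0.699 (interval 0.617 to 0.800), against 0.111 in coding and 0.859 in antisense transcripts. With a mean exon value above 10 the lincRNA medians were 0.646 and 0.445 (coding 0.440 and 0.0734), and with at least 20 approximate reads behind each exon value, a limit chosen after seeing the data, they were 0.652 and 0.395 (coding 0.478 and 0.0848). In the main analysis the gap to coding transcripts was wider in the preexisting than in the newly made RNA. Across the 798 lincRNAs the labeled and the unlabeled ratio rose together (Spearman correlation 0.65), as they did across coding transcripts (0.714). These correlations run over transcripts of the same pair of libraries, which share exon and intron models, and transcripts are not replicates.

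Rates of processing and degradation can be derived from the pair of ratios if the labeled ratio is under 1 and above the unlabeled ratio, since introns are removed with time. Of the 798 lincRNAs, 395 (49.5%, Wilson interval 46.04 to 52.96) had a labeled ratio of at least 1, against 31% of all transcripts. In a further 176 (22.1%, interval 19.3 to 25.1) the labeled ratio was under 1 but equal to or below its unlabeled counterpart, against 6.88% of all transcripts. Together 71.6% of the lincRNAs lay outside the domain of the rate equations, against 33.3% of coding and 75.4% of antisense transcripts. Of the latter, 55.8% had a labeled ratio of at least 1. The labeled ratio fell with abundance, with a Spearman correlation of -0.435 between ratio and mean exon value, both of which contain the labeled exon value. From a median of 2.12 among 166 lincRNAs with a mean exon value between 1 and 3 it went to 0.787 among 203 between 10 and 30 and to 0.362 among 68 above 100. Coding transcripts of the same levels had medians of 1.64, 0.691 and 0.231. When a mean exon value above 10 was required, labeled ratios of at least 1 made up 34.1% in lincRNAs, 14.6% in coding and 17.3% in all transcripts.

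For the 227 lincRNA transcripts inside the domain the median degradation half-life was 15.5 min (interval 12.8 to 19.3), with quartiles of 7.15 and 39.2 min, and for 20920 coding transcripts it was 19 min. An exact solution existed for 95 of the 227, and for the others the nearest pair of rates was taken, as for 11971 of the coding transcripts. With exact solutions alone the median was 15.65 min (interval 10.99 to 26.55) in lincRNAs. In 8949 coding transcripts it was then 24.27 min (interval 23.29 to 25.21), so the distance depends on the kind of solution. The estimate leaves out 571 lincRNAs, so it describes a minority chosen by their ratios.

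Of 22 pluripotency-associated lincRNA genes none had exons listed at 0 in both libraries, and 17 had a mean exon value of at least 10, against 50.4% and 10.1% of all lincRNA genes. Their names come from transcripts that go down as stem cells differentiate (Platr), with Lncenc1 known as a lincRNA of naive embryonic stem cells. Of 21 with both exon values above 0 and a mean above 1, 11 were at least 2-fold above the median of all transcripts and none was 2-fold below, with a median log2 ratio of 1.33, the same as over the 1050 lincRNA transcripts. Of these 1050, 58.7% were above and 9.62% below, against 27.6% and 21.2% of all transcripts. Genes in this and the later lists count with 1 transcript each, whereas these shares run over transcripts. With 1 transcript per gene 54.2% of 756 lincRNAs were above, as the median of all transcripts was then 0.245. Against the main median it was 59.5%.

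Lncenc1 (chr13:97434970-97497007, plus strand, 2 exons, mm10) was the most abundant of them. Its exon value was 347 in the labeled and 511 in the unlabeled library, and its intron value was 124 and 46.4. It was thus among the lincRNAs richer in preexisting RNA, and its intron to exon ratio was 0.358 in newly made and 0.0908 in preexisting RNA, with a derived half-life of 10.8 min from a pair of ratios without an exact solution. Platr10 (chr3:75647446-75655731, minus strand) had exon values of 254.6 and 221.8 and intron values of 145 and 52.7. Its half-life was 2.68 min from an exact solution, the shortest among the lincRNA genes named here. Platr4 (chr3:41484024-41488476, minus strand), on the same chromosome, had 420 labeled and 36.9 unlabeled for exons and 254.7 and 66.8 for introns. In contrast to the other 2, its exons were more than 10 times as high in newly made RNA, and its intron to exon ratio was higher in preexisting RNA (1.81) than in newly made RNA (0.607), so it lay outside the domain.

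Other Platr genes ranged from higher in newly made RNA to higher in preexisting RNA. Platr3 had exon values of 133 and 28.3 and Platr20 of 142 and 41.6, labeled before unlabeled. Platr12 had 40.3 and 6.98, with intron values of 55.3 and 2.64. All these 3 were higher in newly made RNA, like Platr22 (58.2 and 21.5), Platr11 (39.7 and 13.9), Platr6 (34.9 and 12.4) and Platr26 (35.6 and 10.2). Platr2 (133 and 91.05), Platr27 (53.2 and 27.6) and Platr7 (27.8 and 23.0) differed less. Platr15 (105 and 155) and Platr13 (10.75 and 21.01, from about 8.24 and 20.7 reads) were higher in preexisting RNA. Platr29 was listed at 0 in the unlabeled library (4.42 and 0). Platr30 (48.1 and 5.44) shares all of its words of 31 bases with Gm17575, so its reads cannot be assigned to it. Platr2 shares 50.7% of its words with other genes and Platr15 shares 34.3%, so part of their reads cannot be assigned either.

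Several Platr introns stood above their exons. In Platr13 (chr11:41218837-41221096, plus strand) the intron value was 120 in the labeled and 140 in the unlabeled library, which made its labeled ratio of 11.2 one of the 5 highest among the lincRNA genes with a mean exon value of at least 10. That ratio rests on about 8.24 labeled exon reads, and 38.8% of its words are shared with other genes. Platr23 (chr1:136622098-136624650, minus strand) had intron values of 249.9 and 146.0 beside exon values of 24.4 and 21.6. The intron of that transcript is short, and about 10.4 and 7.82 reads stand behind those values. Its start lies 251 bases from that of Zfp281 on the other strand, a transcription factor gene with summed exon values of 210.6 and 548.7.

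The X-linked lincRNAs around the X-inactivation center were present at low to middle levels. Xist, the RNA that coats the X chromosome to be silenced, had exon values of 83.3 and 7.06 for its isoform of 1093 bases and of 31.7 and 8.40 for its isoform of 17946 bases. Tsix, transcribed across Xist on the other strand and known to keep Xist low, had 37.1 and 15.6. Strand is not given for these libraries in the sources used here, so reads of Xist and Tsix cannot be told apart where they overlap. Ftx had 22.0 and 7.39, and Jpx, an activator of Xist, had 13.3 and 9.96. All 3 genes were thus higher in newly made RNA, and Jpx least so. Firre is not of the lincRNA type in the annotation.

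Hosts of microRNAs are processed in the nucleus, where Drosha cuts the hairpin from the primary transcript. Of 47 lincRNA genes with an isoform that holds a microRNA on the same strand or that are named for one, 9 had exons listed at 0 in both libraries and 10 had a mean exon value of at least 10, where all lincRNA genes give 50.4% and 10.1%. Of 17 with both exon values above 0 and a mean above 1, 12 were at least 2-fold above the median of all transcripts and 1 was 2-fold below, and their median log2 ratio was 1.57. Over all transcripts 27.6% lay above and 21.2% below in this way, and over lincRNA transcripts 58.7% and 9.62%. Mir17hg (chr14:115042879-115046727, plus strand), which carries the miR-17 to miR-92a cluster that promotes cell growth, had exon values of 142 and 38.8. Its intron to exon ratio was 0.545 in newly made and 1.89 in preexisting RNA, although about 46.0 and 56.1 reads stand behind the intron values. Its exons were therefore the part that was less abundant in preexisting RNA. All 11 mature microRNAs of the cluster in the RefSeq table (GRCm38.p6) lie inside an exon of this transcript. For each hairpin 1 of them is shown to mark the piece that is cut out, with the seed (bases 2 to 8) in capitals. miR-17-5p and miR-20a-5p share the seed AAAGUGC, and miR-19a-3p and miR-19b-3p share GUGCAAA.
miR-17-5p (chr14:115043684-115043706, plus strand): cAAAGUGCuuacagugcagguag
miR-20a-5p (chr14:115044183-115044205, plus strand): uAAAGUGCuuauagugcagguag
miR-18a-5p (chr14:115043867-115043889, plus strand): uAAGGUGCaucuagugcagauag
miR-19a-3p (chr14:115044048-115044070, plus strand): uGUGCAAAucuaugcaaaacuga
miR-19b-3p (chr14:115044358-115044380, plus strand): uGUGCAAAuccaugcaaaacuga
miR-92a-3p (chr14:115044476-115044496, plus strand): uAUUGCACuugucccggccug

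Other hosts carried their microRNAs in different parts of the transcript. Mir142hg (chr11:87755577-87757270, plus strand) had exon values of 141 and 9.80 and intron values of 18.7 and 4.97, and miR-142a lies in its intron. E130102H24Rik, with miR-101a in an exon, had 47.1 and 3.09. 6720427I07Rik, with let-7a-1, let-7f-1 and let-7d in an exon, had 31.1 and 8.83. These 3 were at least 2-fold higher in newly made RNA, and the intron to exon ratio was higher in preexisting RNA for the first 2, 0.507 against 0.133 and 3.60 against 0.598, with about 5.95 and 7.09 reads behind the unlabeled exon values. The third has no intron value. Dleu2, the host of miR-15a and miR-16-1, was slightly higher in preexisting RNA, with 51.9 and 64.4. The microRNAs lie outside the Dleu2 isoform with the highest exon value, which ends before them. They are shown with let-7 and miR-101a because the position of the hairpin in the transcript differs between these hosts.
miR-15a-5p (chr14:61632075-61632096, minus strand): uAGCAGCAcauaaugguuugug
miR-16-5p (chr14:61631936-61631957, minus strand): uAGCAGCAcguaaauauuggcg
miR-142a-3p (chr11:87756903-87756925, plus strand): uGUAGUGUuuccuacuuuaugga
miR-101a-3p (chr4:101346957-101346977, minus strand): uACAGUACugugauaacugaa
let-7a-5p (chr13:48538239-48538260, minus strand): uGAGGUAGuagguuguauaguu
let-7f-5p (chr13:48537889-48537910, minus strand): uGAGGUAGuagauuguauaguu
let-7d-5p (chr13:48536078-48536099, minus strand): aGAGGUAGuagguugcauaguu

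The rest of the host list was mixed. 2900076A07Rik, with miR-1839 in an intron, had exon values of 40.5 and 8.82 and shares 36.8% of its words with other genes. 6030443J06Rik was higher in preexisting RNA, with 30.6 and 75.1, and its start lies 62 bases from that of a coding transcript of Orc5, a gene of the origin recognition complex on the other strand. Mir124a-1hg had 11.2 and 14.2 and Gm21814 had 201 and 279. 6030443J06Rik and Gm21814 are listed through other isoforms, which span the microRNA genes Gm44363 and Gm24307 of the annotation, and no RefSeq microRNA was found in either. Mir124a-1hg is likewise listed through another isoform, which holds Mir124a-1 and Mir3078. 6030443J06Rik, Mir124a-1hg and Gm21814, like Dleu2, had more exon signal in the unlabeled library.

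The p53 response was represented by 2 lincRNA genes. Lncpint (chr6:31166026-31218420, minus strand), a p53-induced lincRNA, had exon values of 27.5 and 0.94 and intron values of 12.8 and 1.57. Among lincRNA genes with a mean exon value of at least 10 it was one of the 6 with the highest ratio of labeled over unlabeled exon value, 4.87 on the log2 scale, but the unlabeled exon value rests on about 3.55 reads. Trp53cor1, the lincRNA next to the p53 target Cdkn1a, had 7.29 and 1.71 and shares 48.7% of its words with other genes.

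Cytoplasmic lincRNAs went both ways. 2900097C17Rik, the mouse counterpart of NORAD, which binds Pumilio proteins and guards chromosome number, had 22.1 in the labeled and 84.7 in the unlabeled library. It has 1 exon of 4915 bases and shares 44.7% of its 31-base words with other transcripts, nearly all with Gm7292. Dancr, named for holding back differentiation, had 263 and 25.5, and Epb41l4aos had 148 and 37.1. Both spliced genes were thus at least 2-fold higher in newly made RNA, whereas the unspliced one was at least 2-fold lower. Over all transcripts 27.6% lay at least 2-fold above the median and 21.2% below. The unspliced gene is not typical of its class, since of 96 single-exon lincRNA transcripts 69.8% were above and 10.4% below.

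Of 9 lincRNAs tied to differentiated lineages, 6 (Fendrr, Hotair, Hottip, Pantr1, Pantr2 and Rmst) had exons listed at 0 in both libraries, as did 50.4% of all 3407 lincRNA genes. Bvht, a lincRNA of cardiac commitment, was the one with a mean exon value of at least 10, with 22.1 and 15.3. Halr1, from the HoxA region, had 4.67 and 7.40 (about 4.01 and 8.17 reads), and Miat had 2.57 and 0.96.

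Many lincRNAs at the top of the abundance order share sequence with other genes. Each lincRNA transcript was cut into words of 31 bases. The share of words found in GENCODE M21 transcripts of other genes, on either strand, was taken. Of all words, 50% or more were shared for 50.0% of the 84 transcripts with a mean exon value above 100, for 26.3% of the 487 above 10 and for 19.5% of the 1265 above 1. Over all 4898 lincRNA transcripts, most of them at or near 0, it was 25.7%. Among transcripts above 100, the median log2 ratio was -0.08 for 42 with 50% or more shared and 1.12 for 24 with under 10% shared. Over the 1050 transcripts with both exon values above 0, the medians were 0.61 for 183 with 50% or more shared, 1.33 for 251 with 10 to 50% and 1.46 for 616 with under 10%.

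Gm26825 (chr5:5781530-5783636, plus strand) had the highest mean exon value, 6168 in the labeled and 10822 in the unlabeled library. Its words match the reverse strand of the heat shock chaperone gene Hspa8 for 87.0% of the total, and Hspa8 itself summed to 28450 and 51559. The log2 ratios were -0.81 for the lincRNA and -0.86 for the coding gene. Gm26623, which matches the histone variant gene H2afz on the reverse strand, had 4137 and 3990. Gm26582 (chr5:92043064-92055960, plus strand) overlaps G3bp2, a stress granule gene, on the other strand. It had 729 and 3883, with a log2 ratio of -2.41 beside -2.29 for G3bp2, and had one of the 6 lowest ratios among lincRNA genes with a mean exon value of at least 10.

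Gm10076 (chr14:105681828-105682211, plus strand) holds a copy of the ribosomal protein gene Rpl41. It had exon values of 4122 and 1308, and Rpl41 summed to 42097 and 14577. The log2 ratios were 1.66 and 1.53, so this abundant lincRNA and the coding gene were alike in being higher in the labeled library. The coding sequence of Rpl41 has 78 bases and is present in Gm10076 with 0 mismatches, at bases 42 to 119 of the transcript. It is shown because reads from it cannot be assigned to either gene, with start and stop codon in capitals.
Gm10076 (chr14:105681869-105681946, plus strand): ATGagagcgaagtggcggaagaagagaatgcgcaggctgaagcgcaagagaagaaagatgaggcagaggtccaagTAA

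The other genes among the 12 most abundant lincRNA genes differ in how much they share. Gm26917, Gm42418 and AY036118 lie next to each other at 39.8 Mb of chromosome 17. Gm26917 (chr17:39843013-39846341, plus strand) shares no words with another gene of GENCODE M21 and had 6307 and 2971. Only transcripts of that annotation were compared, so an origin of its reads in other sequence was not tested. AY036118 overlaps Gm42418 on the other strand and shares all its words with it, and they had 699 and 1426, and 443 and 1323. Gm42418 in turn matches CT010467.1 on the reverse strand over 96.3% of its words. Gm26917 was thus higher in the labeled and its neighbors in the unlabeled library. Gm26619, which matches Gm10260 on the reverse strand over 49.2% of its words, had 1942 and 910. Gm13166 lies within a group of zinc finger genes on chromosome 4, matches Zfp991 and had 583 and 1422. Gm43549, with 93.2% of its words shared, had 660 and 865, Gm28625, with 76.6% shared, had 1017 and 499, and Gm26899, which overlaps Zfp106 on the other strand, had 390 and 1095. Zfp106 itself had 2105 and 6134, and the log2 ratios of the pair were -1.54 for the coding gene and -1.49 for the lincRNA. Other pairs were less alike. Gm28625 had a log2 ratio of 1.03 beside -0.75 for Efr3a, with which it shares 72% of its words. Gm13166 had -1.29 beside -0.65 for Zfp991.

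There were 38 lincRNA genes with a mean exon value of at least 10 that share at least 50% of their words with 1 coding gene, in reverse orientation in 31 cases. The median log2 ratio was 0.04 over the 38 lincRNAs and -0.70 over their partners. Below 0 were 18 of the lincRNAs and 31 of the partners. In 23 of the 38 pairs both lay on the same side of 0, which held for 14 of the 26 pairs that overlap on opposite strands and for 9 of 11 pairs that lie elsewhere, and the Spearman correlation between the ratios was 0.577 over pairs whose members share sequence and library. In the 26 overlapping pairs the median level of the lincRNA was 15.6% of that of the partner. Nynrin and Gm26751, which share 99.5% of the lincRNA's words, had nearly the same values, 36.3 and 101.1 for Nynrin and 27.2 and 98.8 for Gm26751. How the shared reads were divided was not tested.

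LincRNA genes that share few words with other annotated genes had a higher median ratio. Of 140 genes with a mean exon value of at least 10, both exon values above 0 and under 10% of words shared, 118 had a higher labeled than unlabeled exon value and 96 were at least 2-fold above the median of all transcripts, while 6 were 2-fold below it. Their median log2 ratio was 1.61. Of 98 genes with 50% or more shared, 42 were 2-fold above and 19 were 2-fold below, with a median of 0.62. Over all transcripts with a mean above 1 the shares were 27.6% above and 21.2% below.

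Among lincRNA genes with a mean exon value of at least 10, the highest ratios by selection have low unlabeled values, and 4 genes listed at 0 in the unlabeled library have no ratio and were not ranked. AI839979 (chr5:31569595-31571397, minus strand) had exon values of 31.3 and 0.15, Gm26895 had 20.3 and 0.42, and Gm28875 had 20.5 and 0.51. 4930528D03Rik had 22.3 and 0.69, and Gm43913 had 31.4 and 1.17. The unlabeled values of these 5 stand for about 0.772 to 12.2 reads, so the size of these ratios is uncertain.

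The lowest ratios at that level belonged mostly to transcripts that share sequence. Gm26735 shares 98.7% of its words with Sox4, a transcription factor gene on the other strand, and had 9.79 and 54.2 beside 8.64 and 34.0 for Sox4. Gm26733 overlaps Zfp26 and had 20.99 and 84.7. Gm26837 had 14.9 and 63.5 with 94.1% of its words shared. Gm32618 (chr15:32778904-32796006, plus strand), with 11.4% shared, had the lowest ratio of them, with exon values of 3.31 and 26.2. Its intron value was listed at 0 in the labeled and was 55.9 in the unlabeled library. About 3131 reads stand behind that unlabeled intron value, but about 11.3 behind the labeled exon value. How reads were assigned in this gene was not tested. 4930516B21Rik (chr9:119440278-119444830, minus strand) shares no words with another gene and had 8.19 and 34.2. Its start lies 113 bases from that of Exog, a mitochondrial nuclease gene on the other strand, which had 16.96 and 14.3.

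Introns far above exons were found in a few genes. In Gm14565 (chrX:38705481-38737762, minus strand) the intron value was 382 in the labeled and 586 in the unlabeled library beside exon values of 23.0 and 4.70, the highest labeled ratio (16.6) among the 270 lincRNA genes with a mean exon value of at least 10 and all 4 values above 0. Gm37381 (chr1:3984225-3985984, minus strand) had intron values of 108 and 174 and exon values of 14.5 and 14.2. 5031425E22Rik, whose start lies 1132 bases from that of a coding transcript of Kmt2e on the other strand, had 115 and 28.3 for introns and 17.6 and 9.22 for exons. All 3 lay outside the domain of the rate equations.

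At the other end of these 270 genes, introns were close to 0. Gm26683 had intron values of 2.11 and 0.29 beside exon values of 311 and 186, with 56.8% of its words shared. Gm21814 had 2.39 and 1.14 beside 201 and 279, and Gm26547 had 2.75 and 0.94 beside 168 and 45.7. Gm14340 had 0.61 and 0.39 beside 30.4 and 8.52, and Gm36823 (chr3:38426552-38443632, minus strand) had 0.91 and 0.28 beside 37.0 and 12.6. In these 5 genes the labeled ratio was at most 0.0246. The labeled intron values of Gm21814 and Gm14340 stand for about 8.33 and 7.24 reads.

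LincRNA gene models differ from coding ones. The 1050 lincRNA transcripts with both exon values above 0 had a median of 3 exons, 1230 exonic bases and a span of 6377 bases, against 7 exons, 2127 bases and 20016 bases in coding transcripts. Uridine made up a median of 25.9% of their exonic bases, against 23.7% in coding transcripts. The part of uridine content in the ratios was not tested, and the median log2 ratio was 1.20 in the 263 lincRNAs with the least uridine and 1.41 in the 263 with the most, with a Spearman correlation of 0.04 over the 1050 transcripts.

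The labeled intron to exon ratio varied with the span of the gene, whereas classes by number of exons had overlapping intervals. Its median was 0.891 in 305 transcripts with 2 exons, 0.961 in 225 with 3, 1.10 in 160 with 4, 1.15 in 56 with 5 and 1.42 in 52 with 6 or more. The interval was 0.798 to 1.04 at 2 exons and 0.907 to 2.97 at 6 or more. Abundance, which was lowest in the last class (median of the mean exon value 5.435), was not held constant. By span the labeled ratio went from 0.774 (interval 0.634 to 0.899) in 111 transcripts of up to 2587 bases to 1.19 (interval 1.02 to 1.38) in 259 of more than 15995 bases. The median log2 ratio of exons was 1.43 for 96 single-exon transcripts, 1.48 for 420 with 2 exons and 1.23 with 3. It was 1.08 for 167 with 4, 1.26 for 57 with 5 and 1.36 for 54 with 6 or more. The lowest median, at 4 exons, had an interval (0.82 to 1.29) that overlaps that of every other class. By span, this log2 ratio was 1.55 (interval 1.38 to 1.73) in 263 transcripts of up to 2587 bases and 1.385 in 262 of 2587 to 6377 bases. It was 0.97 (interval 0.68 to 1.19) in 262 of 6377 to 15995 bases and 1.26 (interval 0.94 to 1.51) in 263 longer ones.

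Grouped by position relative to other genes, the lincRNA transcripts had medians with overlapping 95% intervals. A coding gene started within 1000 bases on the other strand for 137 of the 1050 transcripts, with a median of 1.23. It was 1.33 for 846 lincRNAs with no such start within 5000 bases. Transcripts whose span overlaps no other gene had a median of 1.34 (n = 537) and those that overlap one had 1.28 (n = 513), while the 186 that overlap one on the same strand had 1.55. On the X chromosome the median was 1.46 (n = 50).

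Isoforms of 1 gene were compared in direction. In 149 genes with several expressed lincRNA isoforms, 432 in all, every isoform lay on the same side of 0 for 110 genes, above it for 90 and below it for 20. Since 77.2% of the 1050 lincRNA transcripts lie above 0, such agreement would be frequent without any tie between isoforms. The median distance between the highest and the lowest log2 ratio within a gene was 0.82. Isoforms of a gene share exons, so their values are not independent.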

How the data were processed

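The labeled and unlabeled libraries (1 each, replicate 1, 10 min of 4sU) were taken from the deposited table. Per the labels the authors aligned reads with STAR 2.5.0 to mm10 (GRCm38) and quantified exons and introns with RSEM. The deposited score carries the name TPM, although column sums are 10-fold those of TPM, for which the analysis had been laid out. The constant factor leaves ratios unchanged, but it puts the filter on a mean exon value above 1 at a level 10-fold below 1 TPM. A mean above 10 matches 1 TPM. At that level 34.1% of lincRNAs had a labeled ratio of at least 1, against 49.5% in the main analysis.

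Transcripts were matched to GENCODE M21. Ratios required values above 0 and a mean exon value above 1. Calls were 2-fold from the median of all transcripts. Rates followed the published equations for 10 min of labeling, solved on a grid of 4000 points. Exact solutions were sought for every pair of ratios inside the domain. Where 2 existed, the one with the larger ratio of processing to degradation rate was taken. The paper sought exact solutions only above a line in the ratios, and chose between 2 by the rates of the other transcripts. With the smaller ratio taken, the lincRNA median half-life was 15.1 min. With 1 library per group no test was made. Intervals are Wilson or order-statistic 95% intervals and cover the number of transcripts only. Shared words had 31 bases. Approximate reads divide a value times (length less 99 bases) by the step. Depth is otherwise unknown. Python 3.11.15, numpy 2.4.6, pandas 2.3.3 and scipy 1.17.1 were used.

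For each gene the transcript with the highest mean exon value was named if the gene was among the 12 most abundant, or, at a mean of at least 10, among the 6 highest or lowest log2 ratios, the 5 highest or lowest labeled ratios, or in 1 of 6 lists. Other genes named, including partners and neighbors, were chosen after their values were seen. The members and lists were chosen with earlier results of these data known. Listed symbols of another transcript type were left out. Splice site sequences were not analysed here.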

Additional observations from a re-analysis of the deposited data

Results flagged for a closer look

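The table also holds 96 transcripts whose identifiers begin with linc and are not in GENCODE M21, so they entered no comparison of annotated lincRNAs. Of these, 78 had a mean exon value above 1, which is signal outside the annotated set. For 67 of them both exon values were above 0, the median log2 ratio of labeled over unlabeled exon value was 0.95, and 31 were at least 2-fold above the median of all transcripts, as were 27.6% of all transcripts and 58.7% of the annotated lincRNAs. Their loci were not examined.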

How the results depend on the processing

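Each of the 8 summary values was recomputed under the alternatives that apply to it. Of 74 recomputed values 41 stayed within the 95% interval of the main value and 33 did not. The log2 distance from coding transcripts, the one value that could change sign, stayed above 0. The median half-life stayed within its interval throughout, between 13.7 and 18.2 min. Values outside the interval follow, and apart from the change in which transcripts enter, the cause was not tested. Without a filter on the mean exon value, labeled ratios of at least 1 made up 54.8%, the median labeled and unlabeled ratios were 1.12 and 0.81, the log2 distance from coding transcripts was 1.57 and the share 2-fold above the median of all transcripts was 55.3%. With a mean above 10 these were 34.1%, 0.646, 0.445, a distance within the interval, and 62.0%, and the share outside the rate domain was 59.1%. With an exon value above 1 in each library that share was 67.1%, the unlabeled ratio 0.559 and the distance 1.50. With a pseudocount of 0.1, ratios of at least 1 made up 43.1%, the share below the diagonal 31.9%, the share outside the domain 75.0%, the labeled ratio 0.79, the distance 1.91 and the 2-fold share 62.3%. With 1 transcript per gene, the first 2 shares were 44.8% and 25.1%, the labeled ratio 0.855 and the 2-fold share 54.2%. Subtraction of leakage (0.139 of the unlabeled value) gave a distance of 1.90 and a 2-fold share of 61.7%, and leaving out overlapping genes a 2-fold share of 64.8%. The 2-fold share is set against the median of all transcripts under the same alternative, which was -0.25 with a mean above 10, 0.25 with 1 transcript per gene, -0.19 after subtraction of leakage and -0.18 without overlapping genes, beside 0.00 in the main analysis. Against that unchanged median these shares were 55.6%, 59.5%, 56.2% and 60.7%, so the first 3 lay on the other side of the main 58.7%. With an exon value above 1 in each library the share was 55.7%, but against the unchanged median it was 53.3%, below the interval. Of 2 alternatives chosen after seeing the data, under 10% of words shared gave a distance of 1.83 and a 2-fold share of 62.8%. That limit was put on the lincRNAs alone, so they were set against unfiltered coding transcripts. At least 20 approximate reads behind each exon value gave 33.9% with a ratio of 1 or more, 56.1% outside the domain, ratios of 0.652 and 0.395 and a distance of 1.37, and against the unchanged median its 2-fold share was 46.8%.

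No paired analysis was possible because each group has 1 library. Depth limits single transcripts: the median was about 34.2 labeled and 17.1 unlabeled reads per exon value, and 610 of the 1050 lincRNAs had under 20 in a library. Strand is not given in the sources used here. RSEM divides reads that fit several transcripts by expectation maximization, and the table does not show how many reads were divided in this way.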

Other observations

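Among lincRNA genes with under 10% of words shared, several abundant ones lie outside the lists and were chosen here after their values were seen. 1110038B12Rik (chr17:34950241-34952448, minus strand) had exon values of 749.8 in the labeled and 127.3 in the unlabeled library, and its intron to exon ratio was 0.337 and 0.640. Gm26853 and Gm26804, which lie near each other on chromosome 8, had 629 and 68.3, and 492 and 46.6, so both were about equally enriched in newly made RNA, with log2 ratios of 3.20 and 3.40. AU020206 (chr7:75769762-75782099, minus strand) differed from these, with exon values of 196 and 223 and intron values of 204 and 295. In 1700020I14Rik (chr2:119594297-119600746, plus strand) the exon value was higher in preexisting RNA, 77.9 against 143, while its intron value was 35.5 in newly made and 9.34 in preexisting RNA.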
